A study of Drosophila melanogaster with 18 samples.

Results

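The genes described here are 37 protein-coding genes of chromosome 4 of *Drosophila melanogaster* that were chosen by name for the known roles of their products. All coordinates are on chromosome 4 of the BDGP6 assembly. They were taken from the table of gene expression by FlyBase symbol, 35 directly and 2 through a synonym, since Arf102F and Thd1 are entered as Arf4 and Tdg in the annotation used for coordinates. The 37 make up part of the 110 chromosome 4 genes (79 of them protein-coding) among the 17288 genes of the table, and members are picked out by name and location, from a list drawn up with earlier results of these data known. RNA was sequenced from dissected brains of young females, dissected brains of young males and ovaries, with 3 control and 3 tud mutant libraries for each, 18 libraries in all. Mutant flies carried the tud1 allele, marked with bw and sp, over the deficiency Df(2R)PurP133 in a y, w background. Control flies carried the same tud1 chromosome over a CyO balancer with a P[w+, hs-hid] element, also in y, w, so that controls have one tud1 allele too. Both the balancer and the deficiency are forms of chromosome 2, and neither genotype is written with a change on chromosome 4. The paper does not say whether mutants and controls were matched for their other chromosomes, chromosome 4 among them. A balancer was set against a deficiency, and each group is a pool of dissected tissue from one such genotype. An effect of tud, of the other differences between these chromosome 2 forms and of any difference on other chromosomes thus cannot be told apart. Levels are FPKM, mapped fragments scaled to transcript length and to a measure of library depth, so that levels can be compared between genes on a per-length scale. How the libraries were scaled to each other is not given in the sources used here. FPKM summed to 987099 to 3411767 per brain library and to 742402 to 905508 per ovary library. Upper quartiles were 20.6 to 23.9 FPKM.

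Chromosome 4, the dot chromosome, is the smallest of the fly's autosomes and most of it is heterochromatic, with repeats lying between genes that are nonetheless transcribed. Its genes are bound by the chromosome-specific protein Pof and by heterochromatin protein HP1, and methylation of histone H3 at lysine 9 there depends largely on the methyltransferase eggless (egg). The named genes include regulators that act in the brain and eye, among them the Pax6 genes ey and toy, and components of the Hedgehog, Wnt, Eph, semaphorin and activin pathways. The tud gene itself lies on chromosome 2 and encodes the Tudor protein of germ granules, which organizes germ plasm in the ovary.

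Over the whole series, the estimated number of fragments per library ran from 4900000 to 13500000 in brain and from 18600000 to 26900000 in ovary. The median correlation of a library with the others of its tissue, on log2(FPKM + 1), was 0.836 for control male brain replicate 2, from 0.899 to 0.946 for the other brain libraries and from 0.964 to 0.971 in ovary, and the residual standard deviation was 0.335 in brain against 0.108 in ovary. Control male brain replicate 2 also held the male-specific RNA roX2 at 378 FPKM against 11621 to 18619 in the other male brains, and replicate 2 of the female brains labelled tud mutant stood apart in the level of the chromosome 4 genes. In ovary, tud fell from 61.0 to 67.2 FPKM in controls to 9.10 to 12.4 FPKM in mutants (log2 difference -2.44, adjusted p = 0.000118), and in brain its difference of -0.54 did not pass the test (adjusted p = 0.0942). Brain levels of tud were 31.4, 26.0 and 23.9 FPKM in control females, 36.2, 20.2 and 20.6 FPKM in control males and 17.4, 17.9 and 12.9 FPKM in mutant males. Of the female brains labelled tud mutant, replicates 1 and 3 were at 15.3 and 14.1 FPKM and replicate 2 at 32.3 FPKM, above every female control, so the level of tud went against the label of that library. Yp1, a female yolk protein gene, was at 638 FPKM or more in every female brain and at 13.5 FPKM or less in every male brain. A summed set of 6 neuronal markers was at 199 to 934 FPKM in the brain libraries and at 0.77 to 1.21 FPKM in ovary. The 8 germline markers summed to 1349 to 1476 FPKM in ovary and to 18.4 to 53.0 FPKM in brain. Brain libraries held markers of other tissues as well. Photoreceptor markers summed to 2098 to 9237 FPKM there. Fat body markers, Yp1 among them, summed to 1341 to 4521 FPKM in female and 70.6 to 447 FPKM in male brains. For follicle cell markers, Yp3 among them, the sums were 546 to 5121 FPKM in female and 22.8 to 38.8 FPKM in male brains. Since the labels name biological replicates but no batch, p-values measure the spread between these libraries.

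The first comparison asked how the 37 genes are shared between brain and ovary in control flies. Most differed between the tissues, 17 being higher in ovary and 14 higher in female brain, a total of 31 calls at an adjusted p of 0.05 by limma on log2(FPKM + 1). Such calls were the rule for all genes, 84.8% of which passed the same test (38.3% higher and 46.5% lower in ovary). In bulk samples such as these, fewer cells of a type and less RNA per cell cannot be told apart. The widest gaps were those of transcription factors and of secreted or synaptic proteins of neurons, on the brain side, and of Mitf on the ovary side. In control female brain 6 of the 37 genes averaged at least 100 FPKM and none was under 1 FPKM, whereas in control ovary 11 averaged at least 100 FPKM and 7 were under 1 FPKM.

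**Figure D1:**
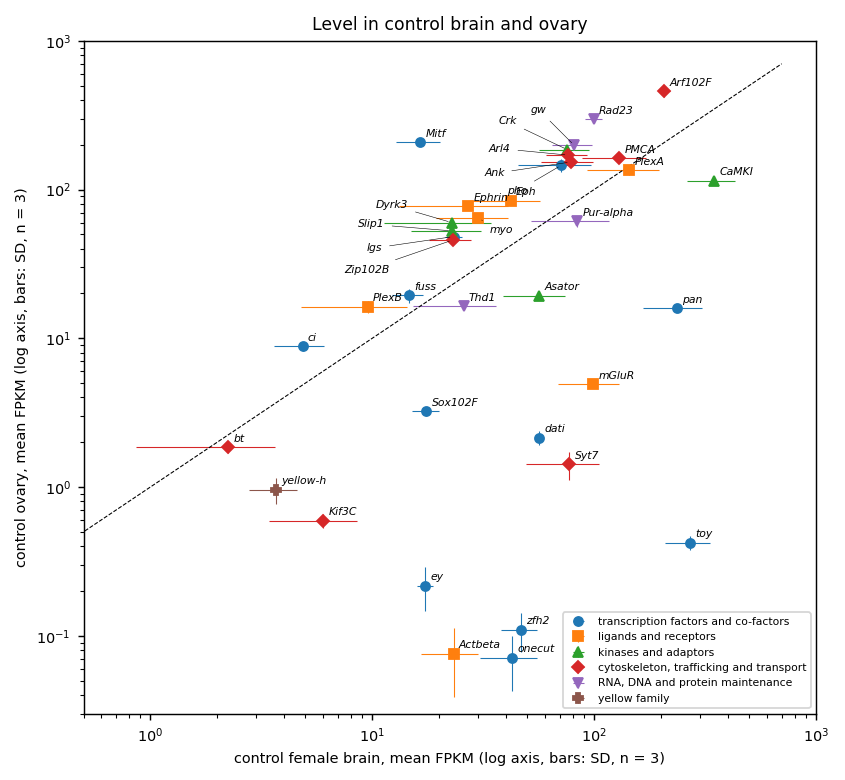
Mean FPKM of each of the 37 genes in 3 control female brain libraries (horizontal, log axis) and in 3 control ovary libraries (vertical, log axis), with bars for the SD, the colour and shape of a point for the functional group, and a dashed line where both tissues have the same level. Mitf lies farthest above the line (16.5 FPKM in brain and 209 in ovary), and toy (271 and 0.422 FPKM), zfh2, onecut and Actbeta lie farthest below it.

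Among the transcription factors and co-factors, toy, the upstream Pax6 gene of eye and brain development, was the most highly expressed in control female brain. Its levels there were 292, 321 and 200.5 FPKM, against 0.397, 0.395 and 0.475 FPKM in control ovary, a log2 difference of -7.55 (standard error 0.18, adjusted p = 8.67e-08). The other Pax6 gene, ey, a master regulator of eye development, averaged 17.3 ± 1.39 FPKM (SD, n = 3) in control female brain and 0.218 ± 0.0705 FPKM in ovary. The ovary levels of both Pax6 genes thus lay under 1 FPKM in every library, and toy was the more abundant of the pair in brain on this per-length scale. The homeodomain genes zfh2 and onecut, which act in neuronal development, were also near 0 in ovary, at 0.139, 0.0762 and 0.114 FPKM for zfh2 and at 0.0393, 0.0957 and 0.0785 FPKM for onecut, the lowest level of any of the factors. Their log2 differences between ovary and female brain were -5.41 for zfh2 and -5.31 for onecut. The zinc finger gene dati, known for its part in female courtship and expressed widely in neurons, differed by -4.19, and pan, the TCF factor at the end of the Wnt pathway, by -3.77. In contrast to ey and toy, pan kept a clear level in ovary, 16.7, 15.3 and 15.6 FPKM, below its 269, 284 and 156 FPKM in female brain. Sox102F, a SoxD-type HMG-box factor, was lower in control ovary, with a log2 difference of -2.12 (standard error 0.12, adjusted p = 4.2e-06).

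The remaining factors were higher in ovary. Mitf, a helix-loop-helix regulator of lysosomal and autophagy genes, was at 20.7, 15.3 and 13.5 FPKM in control female brain and at 216, 202 and 208 FPKM in control ovary, a log2 difference of 3.61 (standard error 0.15, adjusted p = 1.03e-06), with no overlap between the tissues. Smaller differences in the same direction were measured for pho, a DNA-binding member of the Polycomb group (1.09), lgs, the BCL9-type co-factor that joins Armadillo to Pygopus (1.03), ci, the transcription factor of the Hedgehog pathway (0.77), and fuss, a Ski/Sno-type co-repressor (0.39, adjusted p = 0.0296). Of the 12 factors ci was the lowest in control female brain, at 5.99, 5.01 and 3.55 FPKM, against 8.89, 8.19 and 9.45 FPKM in control ovary.

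Ligands and receptors were divided between the tissues in the same manner. Actbeta, the activin ligand of neurons and neuroendocrine cells, was near 0 in ovary (0.0398, 0.114 and 0.0740 FPKM) and at 30.3, 22.3 and 17.1 FPKM in control female brain, a log2 difference of -4.46. The metabotropic glutamate receptor gene mGluR differed by -4.03, with means of 99.1 ± 30.1 FPKM in brain and 4.92 ± 0.257 FPKM in ovary (SD, n = 3). By contrast myo, a myostatin and GDF11-type ligand of the same superfamily as Actbeta, was higher in ovary by 1.12, and both Eph, the only Eph receptor tyrosine kinase of the fly, and its ligand gene Ephrin were higher there by 1.04 and 1.60. PlexA, the receptor of transmembrane semaphorins, was the most abundant of these 7 genes in both tissues. Its levels were 165, 181 and 85.5 FPKM in control female brain and 146, 133 and 126 FPKM in control ovary, and they overlapped (log2 difference -0.02, standard error 0.28, adjusted p = 0.943). PlexB, the receptor of secreted semaphorins, was the lowest of the 7 in brain, at 14.2, 9.70 and 4.70 FPKM, and its 17.6, 16.6 and 14.6 FPKM in ovary gave a log2 difference of 0.82 that missed the threshold (adjusted p = 0.057).

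In the kinases and adaptors, CaMKI, a calcium and calmodulin dependent kinase, had the highest brain level of all 37 genes, 406, 385 and 249 FPKM, against 114, 107 and 123 FPKM in ovary (log2 difference -1.56). Asator, a tubulin-tau kinase that associates with the spindle, was also higher in brain (-1.45) and was the lowest of the group in ovary, at 19.04, 19.5 and 19.5 FPKM. Crk, the SH2-SH3 adaptor, was the most abundant of the group in ovary, at 191, 174 and 190.5 FPKM. It was higher there than in brain (1.30), as were the dual-specificity kinase gene Dyrk3 (1.47), the lowest of the group in brain by a narrow margin, and Slip1 (1.22), which encodes a SLo-interacting protein.

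The genes of cytoskeleton, trafficking and transport held both the highest and some of the lowest levels. Arf102F, a small GTPase of the ARF family, was at 216, 211 and 192 FPKM in control female brain and at 476, 411 and 485 FPKM in ovary, a log2 difference of 1.14. Syt7, a synaptotagmin and calcium sensor of vesicle release, was higher in brain (log2 difference -4.96), and Kif3C, a kinesin motor gene, was listed at 8.44, 6.21 and 3.33 FPKM in brain and 0.661, 0.536 and 0.588 FPKM in ovary (-2.06). The giant muscle protein gene bt, which encodes projectin, was the lowest of the group in brain, at 3.81, 1.77 and 1.16 FPKM, and overlapped with its ovary level of 1.96, 1.68 and 1.90 FPKM. Higher levels in ovary were measured for Arl4, an ARF-like GTPase gene (1.16), Ank, an ankyrin that links membrane proteins to spectrin (0.99), and Zip102B, a zinc transporter gene (0.98). PMCA, the plasma membrane calcium pump, did not pass (0.37, adjusted p = 0.153).

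In the group of RNA, DNA and protein maintenance, Rad23, a ubiquitin-binding protein of nucleotide excision repair and proteasomal delivery, was the most abundant in both tissues, at 101, 107 and 89.8 FPKM in control female brain and 318, 291 and 285 FPKM in control ovary (log2 difference 1.57). The gene gw, which encodes the GW182 protein of miRNA silencing, was higher in ovary by 1.29. Thd1, a thymine DNA glycosylase, was the lowest of the group in both tissues, at 36.5, 25.3 and 15.6 FPKM in brain and 17.3, 16.1 and 15.9 FPKM in ovary, and neither it (-0.54) nor Pur-alpha (-0.38), a single-stranded nucleic acid binding protein gene, passed the test. The yellow family gene yellow-h was at 4.67, 3.45 and 2.93 FPKM in brain and 1.17, 0.809 and 0.901 FPKM in ovary, a log2 difference of -1.25 that turned to 0.49 when all libraries were quantile normalized. Under the same scaling the brain excess of Kif3C shrank to -0.45 and lost its call.

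The second comparison, tud mutant against control brain, asked whether the genotype changed these genes. Averaged over the sexes, 25 of the 37 genes were higher in mutant brains at an adjusted p of 0.05 and none was lower, whereas over all 10689 genes tested 24.9% passed in either direction, 14.2% higher and 10.8% lower. Of all brain calls 56.9% were thus higher, a share that was 44.1% with quantile normalization. Without the library labelled tud mutant female brain replicate 2, whose tud level went against that label, 10 of the 37 were called, where 13% of all genes passed. All 10 were higher, with a median of 0.86 over the 37. The median log2 difference of the 37 was 0.96, against 0.07 over all genes tested, and 35 of the 37 had a positive difference. In 21 of the 37 every mutant library lay above every control library within each sex, a pattern held by 10.0% of all genes, and in none did every mutant lie below every control (9.01% of all genes). All 37 were at a mean of at least 1 FPKM in the brain libraries, so all were tested.

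**Figure D2:**
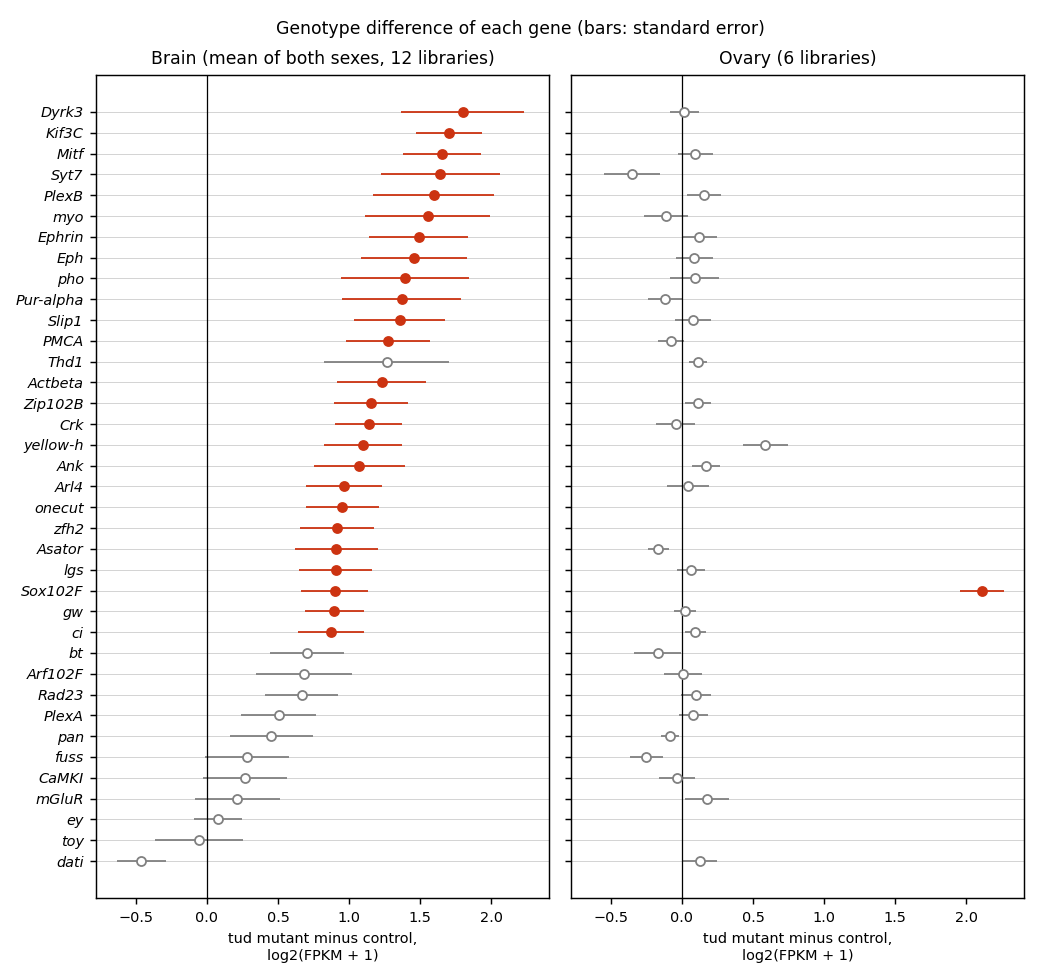
Log2 difference in FPKM + 1 between tud mutant and control for each of the 37 genes in brain (left, mean of both sexes) and for the 31 tested in ovary (right), ordered by the brain value, with bars for the standard error of the limma fit and filled red points for an adjusted p of 0.05 or less. Brain values lie above 0 for 35 of 37 genes (median 0.96), ovary values have a median of 0.08, and Sox102F in ovary (2.11) and yellow-h (0.59) lie farthest above it.

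Among transcription factors 7 of 12 rose, where 14.2% of all genes tested did, and their median difference was 0.88. The largest change was that of Mitf (FBgn0263112, 1198852 to 1224467, plus strand). It was at 20.7, 15.3 and 13.5 FPKM in control and 43.1, 55.9 and 46.9 FPKM in mutant female brains. Male brains had it at 20.3, 4.36 and 10.1 FPKM in control and 35.7, 37.2 and 36.2 FPKM in mutant libraries. All mutant libraries exceeded all controls of either sex. The log2 difference was 1.65 (standard error 0.27, adjusted p = 0.00801). The Polycomb group gene pho (FBgn0002521, 1172469 to 1181628, minus strand) went from 91.9, 79.4 and 42.1 to 168, 177 and 152 FPKM in female brains. In males its controls were spread from 10.4 to 86.1 FPKM (84.1, 10.4 and 86.1) and its mutants were tight (119.5, 127 and 124), and the rise of 1.39 (standard error 0.45, adjusted p = 0.0461) was only just past the threshold. That call was lost in 12 of the 21 alternatives run, among them a pseudocount of 0.1, no filter on low genes and the replicate number as a block.

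Sox102F (FBgn0039938, 800436 to 834393, minus strand) was at 19.8, 17.8 and 14.96 FPKM in control and 26.03, 47.8 and 25.3 FPKM in mutant female brains. The male libraries had 18.7, 6.53 and 11.95 FPKM in controls and 25.4, 25.8 and 19.2 FPKM in mutants. No mutant library overlapped with the controls of its sex, though the lowest mutant male library exceeded the highest male control by a small margin, and the log2 difference was 0.90 (standard error 0.24, adjusted p = 0.0269). The onecut gene (FBgn0028996, 598555 to 607649, minus strand) had 55.5, 41.96 and 30.9 FPKM in control and 63.8, 127 and 55.4 FPKM in mutant female brains, with the second library labelled mutant far above the others and the third just under the highest control. Its male levels did not overlap, at 56.3, 24.5 and 31.4 FPKM in controls and 79.97, 78.5 and 62.7 FPKM in mutants, and the difference was 0.95 (standard error 0.26, adjusted p = 0.0279). For zfh2 (FBgn0004607, 501810 to 540874, plus strand) the female levels were 55.1, 47.2 and 37.8 FPKM in controls and 64.98, 116 and 73.3 FPKM in mutants, without overlap. In males they were 64.4, 20.8 and 29.4 FPKM in controls and 78.3, 76.8 and 56.7 FPKM in mutants, where the lowest mutant was below the highest control. Its difference was 0.91 (standard error 0.26, adjusted p = 0.0317).

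Of the pathway factors, ci (FBgn0004859, 47710 to 57041, minus strand) rose from 5.99, 5.01 and 3.55 to 8.93, 10.5 and 8.70 FPKM in female brains. Male brains had 6.07, 1.42 and 3.54 FPKM in controls and 7.56, 7.22 and 6.14 FPKM in mutants. Groups did not overlap in either sex, although the male ones came close, and the difference was 0.87 (standard error 0.23, adjusted p = 0.0265). The Wnt co-factor gene lgs (FBgn0039907, 436957 to 443911, minus strand) went from 25.3, 23.1 and 21.3 to 29.3, 69.9 and 31.6 FPKM in females, and from 27.8, 11.2 and 14.96 to 41.3, 38.4 and 28.2 FPKM in males. Its difference was 0.90 (standard error 0.26, adjusted p = 0.0311), with the second female library labelled mutant far above the other mutants of that sex. The Wnt effector pan, which acts with lgs, was at a mean of 236 ± 69.9 FPKM in control and 278 ± 35.7 FPKM in mutant female brains (SD, n = 3), and its difference of 0.45 (standard error 0.29, adjusted p = 0.263) did not pass.

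The eye regulators did not pass the test. In female brains toy was at 292, 321 and 200.5 FPKM in control and 369, 199.6 and 310.4 FPKM in mutant libraries. The male controls, at 287, 159 and 630.3 FPKM, spanned the mutant levels of 238, 251 and 314 FPKM. Neither toy (-0.06, standard error 0.31, adjusted p = 0.909) nor ey (0.08, standard error 0.17, adjusted p = 0.759) passed, and the mutant and control levels of each overlapped in both sexes. The co-repressor gene fuss did not pass either (0.28, adjusted p = 0.495). The only other gene with a negative value was dati (FBgn0262636, 375640 to 395605, minus strand), a neuronal zinc finger factor. Its levels were 58.6, 56.6 and 54.3 FPKM in control and 39.2, 33.4 and 36.4 FPKM in mutant female brains, which did not overlap. In males the controls were 59.7, 37.6 and 81.5 FPKM and the mutants 39.1, 47.3 and 52.3 FPKM. The second control male library lay below all mutants of that sex and the other controls lay above them. With all libraries the difference was -0.46 (standard error 0.17, adjusted p = 0.0676), and without control male brain replicate 2 it was -0.61 (adjusted p = 0.0159). With any other single library left out it did not pass the limma test (adjusted p from 0.077 to 0.158).

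**Figure D3:**
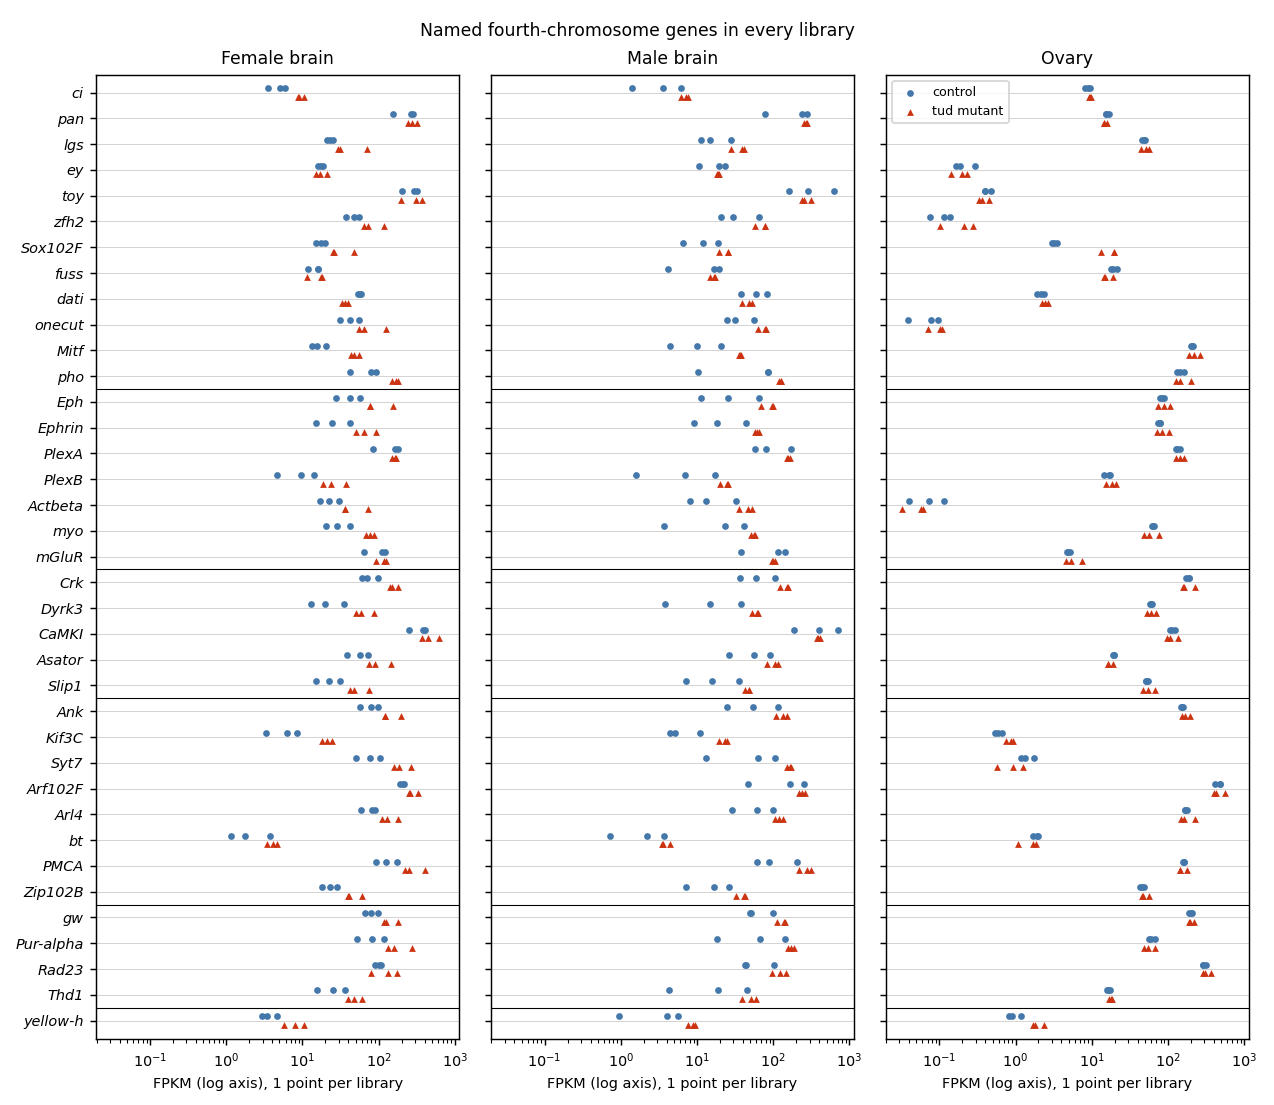
FPKM of each of the 37 genes in every library (log axis, 1 point per library) in female brain, male brain and ovary, with circles for controls, triangles for tud mutants and lines between the functional groups. Mutant points lie above all controls in both brains for 21 of the 37 genes, and in ovary for Sox102F and yellow-h. They also do in ovary for Kif3C, which was under 1 FPKM throughout and was not tested there.

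Ligands and receptors had the largest median of the functional groups, 1.46, with 5 of 7 called higher (14.2% of all genes tested). Eph (FBgn0025936, 610684 to 622470, plus strand), the guidance receptor, was at 57.3, 41.5 and 27.2 FPKM in control and 77.9, 155 and 76.8 FPKM in mutant female brains. Male levels were 64.6, 11.3 and 25.5 FPKM in controls and 97.7, 96.2 and 68.8 FPKM in mutants. Its ligand gene Ephrin (FBgn0040324, 571755 to 580122, plus strand) was at 42.1, 24.2 and 14.9 FPKM in control and 63.7, 91.5 and 50.7 FPKM in mutant females. For both genes the groups were separate within each sex. In males Ephrin was at 43.8, 9.14 and 18.5 FPKM in controls and 65.2, 60.9 and 57.9 FPKM in mutants. The receptor and the ligand changed by close values, 1.46 (standard error 0.37, adjusted p = 0.0243) for Eph and 1.49 (standard error 0.35, adjusted p = 0.0197) for Ephrin.

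Of the plexins, PlexB (FBgn0025740, 32478 to 43778, minus strand), the secreted semaphorin receptor, went from 14.2, 9.70 and 4.70 to 23.9, 36.9 and 18.8 FPKM in female brains. It went from 17.3, 1.56 and 6.96 to 25.1, 24.4 and 20.05 FPKM in male brains, a difference over both sexes of 1.59 (standard error 0.42, adjusted p = 0.0267). Mutants and controls did not overlap in either sex, and the lowest level was that of the second control male library. PlexA was at 162, 151 and 171 FPKM in mutant female brains, within the range of its controls. In males it went from 173, 57.7 and 79.1 to 167, 158 and 151 FPKM, where the highest control lay above all mutants, and its difference of 0.50 (standard error 0.27, adjusted p = 0.175) did not pass. Among the activin ligands, Actbeta (FBgn0024913, 1077331 to 1084796, minus strand) rose from 30.3, 22.3 and 17.1 to 36.5, 71.8 and 35.9 FPKM in females. In males it had 32.8, 8.04 and 13.3 FPKM in controls and 52.9, 46.9 and 35.7 FPKM in mutants, and the difference was 1.23 (standard error 0.31, adjusted p = 0.0239). The related ligand gene myo (FBgn0026199, 690686 to 696055, minus strand), expressed in glia and muscle in larvae, went from 41.5, 28.6 and 20.2 to 76.1, 85.95 and 67.3 FPKM in female brains. It went from 40.7, 3.67 and 22.9 to 56.9, 55.5 and 51.2 FPKM in male brains. Neither ligand overlapped between genotypes, myo changed by 1.55 (standard error 0.44, adjusted p = 0.0307), and its second control male library was far below all others. The receptor gene mGluR differed by 0.21 (standard error 0.30, adjusted p = 0.612) and did not pass.

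In the kinases and adaptors 4 of 5 rose (14.2% of all genes tested), with a median of 1.14. Dyrk3 (FBgn0027101, 1225089 to 1230713, minus strand), which lies beside Mitf on the opposite strand, had the largest log2 difference of the 37, 1.80 (standard error 0.43, adjusted p = 0.0212). Its levels were 35.5, 20.1 and 12.9 FPKM in control and 58.5, 86.1 and 50.5 FPKM in mutant female brains. They were 37.9, 3.78 and 14.9 FPKM in control and 62.5, 61.2 and 51.9 FPKM in mutant male brains, again with no overlap. Crk (FBgn0024811, 210224 to 213165, plus strand) went from 97.3, 69.5 and 60.6 to 142, 182 and 148 FPKM in females, and from 106, 36.2 and 58.8 to 156, 151 and 123 FPKM in males. This adaptor changed by 1.14 (standard error 0.24, adjusted p = 0.016) and its groups were separate in both sexes. Slip1 (FBgn0024728, 663621 to 669884, plus strand) went from 31.2, 22.3 and 15.2 to 48.2, 75.5 and 41.98 FPKM in females, and from 35.1, 7.26 and 15.8 to 48.2, 47.9 and 42.7 FPKM in males. Its groups were separate in both sexes and its difference was 1.35 (standard error 0.32, adjusted p = 0.0205). Asator (FBgn0039908, 469409 to 488994, minus strand), the kinase of the spindle, had 73.4, 57.2 and 38.6 FPKM in control and 90.8, 146 and 74.5 FPKM in mutant female brains. Its male levels, 89.3, 26.1 and 55.7 FPKM in controls and 114, 105 and 82.9 FPKM in mutants, overlapped at the highest control, and the difference was 0.91 (standard error 0.29, adjusted p = 0.0452), a call lost in 11 of the 21 alternatives. The kinase CaMKI was at 621, 372 and 449.9 FPKM in mutant females. Its male levels were 401, 185 and 698 FPKM in controls and 384, 373 and 414 FPKM in mutants, and it overlapped with controls in both sexes (0.27, standard error 0.30, adjusted p = 0.514).

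In cytoskeleton, trafficking and transport 6 of 8 rose (14.2% of all genes tested), with a median of 1.11. Kif3C (FBgn0039925, 1147466 to 1169239, plus strand), the kinesin, was at 8.44, 6.21 and 3.33 FPKM in control and 24.7, 21.3 and 17.9 FPKM in mutant female brains, 3.55 times the control mean. Male brains had it at 10.8, 4.41 and 5.08 FPKM in control and 23.03, 24.3 and 19.3 FPKM in mutant libraries, 3.29 times the control mean. The lowest mutant library, at 17.9 FPKM, was above the highest control of either sex, at 10.8 FPKM, and the log2 difference was 1.70 (standard error 0.23, adjusted p = 0.00309). The gene CG32017 overlaps Kif3C on the opposite strand and rose as well (log2 difference 2.04, adjusted p = 0.0178), from a mean of 63.8 to 191 FPKM in females. The libraries were strand-specific, but whether the counting used the strand is not given in the sources used here. Syt7 (FBgn0039900, 278685 to 306481, minus strand) had 105, 76.8 and 49.7 FPKM in control and 188, 269 and 159.5 FPKM in mutant females, and 104, 12.9 and 63.02 FPKM in control and 171, 165 and 154 FPKM in mutant males. The lowest mutant library of this synaptotagmin gene exceeded the highest control of either sex, and its difference was 1.64 (standard error 0.42, adjusted p = 0.0245).

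PMCA (FBgn0259214, 328193 to 358917, minus strand), the calcium pump, was at 174, 125 and 91.1 FPKM in control and 254, 407 and 224 FPKM in mutant female brains. Male brains had 202, 60.5 and 87.7 FPKM in controls and 309, 279 and 219.9 FPKM in mutants. The log2 difference was 1.27 (standard error 0.30, adjusted p = 0.0194), with no overlap within a sex. Zip102B (FBgn0039902, 310930 to 314087, minus strand), the zinc transporter gene, had 28.1, 22.8 and 18.2 FPKM in control and 40.04, 60.7 and 40.3 FPKM in mutant females, and 26.4, 7.19 and 16.4 FPKM in control and 42.00, 40.9 and 32.4 FPKM in mutant males. It changed by 1.15 (standard error 0.26, adjusted p = 0.0186). Ank (FBgn0011747, 115074 to 129849, minus strand) had 98.1, 80.2 and 57.1 FPKM in control and 123, 195 and 121 FPKM in mutant females, and 114, 25.02 and 54.9 FPKM in control and 151, 134 and 109 FPKM in mutant males, where the highest control was above the lowest mutant. This ankyrin gene changed by 1.07 (standard error 0.32, adjusted p = 0.0349). Arl4 (FBgn0039889, 177348 to 179389, minus strand), the ARF-like GTPase gene, went from 88.8, 82.5 and 58.3 to 112, 182 and 127 FPKM in females, and from 99.3, 28.99 and 61.6 to 132, 119.9 and 106 FPKM in males, a difference of 0.96 (standard error 0.27, adjusted p = 0.0298). Arf102F, the most abundant of the group, was separate in females (253, 255 and 332 FPKM in mutants). It overlapped in males, at 253, 46.2 and 166 FPKM in controls and 264, 237 and 219.7 FPKM in mutants, and did not pass (0.68, standard error 0.34, adjusted p = 0.149). The projectin gene bt was at 4.65, 4.10 and 3.41 FPKM in mutant females, 3.73, 0.726 and 2.18 FPKM in control males and 4.38, 3.49 and 3.57 FPKM in mutant males. It overlapped in both sexes and did not pass (0.70, standard error 0.26, adjusted p = 0.0685).

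Of the maintenance genes, gw (FBgn0051992, 649041 to 660608, minus strand) rose from 99.3, 79.00 and 65.8 to 124, 179.7 and 118 FPKM in female brains. In male brains it had 101, 51.00 and 49.02 FPKM in controls and 141, 137 and 110.5 FPKM in mutants, and its change of 0.90 (standard error 0.21, adjusted p = 0.019) had one of the smallest errors of the list. Pur-alpha (FBgn0022361, 558016 to 567257, plus strand) had 117, 82.6 and 52.6 FPKM in control and 161, 274 and 134 FPKM in mutant females. Its male controls were 141, 18.5 and 67.4 FPKM and its male mutants 185, 169 and 154 FPKM, and the difference was 1.37 (standard error 0.42, adjusted p = 0.0384), a call also lost in 11 of 21. Groups of both genes were separate within each sex. Rad23 was at 78.9, 173 and 131 FPKM in mutant females, 103, 44.1 and 42.01 FPKM in control males and 145, 122 and 96.7 FPKM in mutant males. It overlapped in both sexes and did not pass (0.67, standard error 0.26, adjusted p = 0.0757). Thd1 was at 46.9, 61.1 and 39.96 FPKM in mutant females, without overlap. In males it was at 45.4, 4.24 and 18.9 FPKM in controls and 58.7, 50.4 and 39.2 FPKM in mutants, which overlapped, and it missed the threshold despite a larger difference (1.26, standard error 0.44, adjusted p = 0.0571). Thd1 and zfh2 overlap each other on opposite strands, so that reads may be shared between them if strand was not used. Finally yellow-h (FBgn0039896, 227922 to 230428, plus strand), of a family of secreted proteins named for a pigmentation gene, had 4.67, 3.45 and 2.93 FPKM in control and 8.08, 5.70 and 10.4 FPKM in mutant females, and 5.57, 0.936 and 4.03 FPKM in control and 8.92, 7.60 and 9.27 FPKM in mutant males. It rose by 1.10 (standard error 0.27, adjusted p = 0.0231) with no overlap within a sex.

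The spread between control libraries was itself shared by these genes. Control male brain replicate 2 had the lowest level of all 12 brain libraries for 33 of the 37, and control female brain replicate 3 had the lowest level of its group for all 37, while the library labelled tud mutant female brain replicate 2 had the highest of the 12 for 25. The median log2(FPKM + 1) of the 37 was 5.82, 5.43 and 4.997 in control female brains and 6.04, 6.54 and 6.09 in mutant female brains. It was 5.92, 3.63 and 4.93 in control male brains and 6.31, 6.28 and 5.88 in mutant male brains. The median of protein-coding genes on other chromosomes that were tested in brain stayed between 4.06 and 4.22 in all 18 libraries. The median of other genes spanning 20 kb or more also moved across the brain libraries, from 3.74 in control male brain replicate 2 to 4.76 in the library labelled tud mutant female brain replicate 2. Without control male brain replicate 2, 22 of the 37 were higher and 1, dati, was lower, where 20.6% of all genes passed in either direction. Without both outlying libraries 18 were higher and 1, dati, was lower (16% of all genes), with a median of 0.69 over the 37. The number of genes with no overlap within either sex was 21 without control male brain replicate 2 (10.7% of all genes) and 21 without both (12.4%). Without the library labelled tud mutant female brain replicate 2 alone that number was 21 (11.4%). Leaving out a library can only keep or raise such a count, so these counts do not test the pattern. In the fit without the library labelled tud mutant female brain replicate 2, the 25 genes called with all libraries had differences from 0.71 to 1.70. Mitf, Ephrin, Crk, Dyrk3, Slip1, Kif3C, PMCA, Zip102B, gw and yellow-h passed in that fit.

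**Figure D4:**
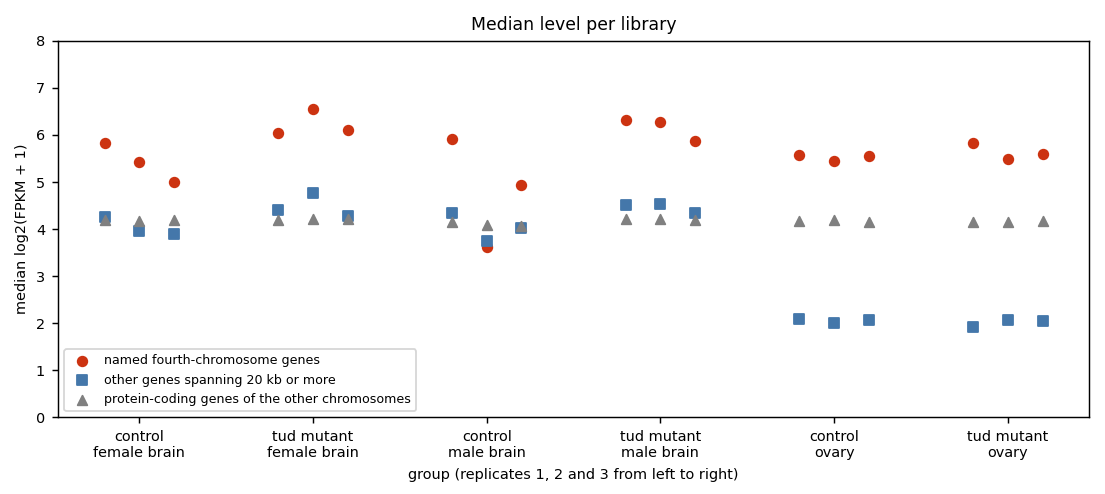
Median log2(FPKM + 1) in each of the 18 libraries for the 37 genes, for other protein-coding genes spanning 20 kb or more and for protein-coding genes of the other chromosomes. Both comparison sets hold only genes tested in brain. The median of the 37 genes runs from 3.63 in control male brain replicate 2 to 6.54 in the library labelled tud mutant female brain replicate 2. That of the other long genes runs from 3.74 to 4.76 in the same brain libraries and from 1.93 to 2.10 in ovary. The median of other chromosomes stays between 4.06 and 4.22.

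How many of the 37 passed depended strongly on single libraries, although their median did not. Leaving out tud mutant male brain replicate 1 gave 2 calls, leaving out control female brain replicate 3 gave 3, and leaving out tud mutant male brain replicate 2 gave 5. It was 9 without control female brain replicate 2 and 10 without the library labelled tud mutant female brain replicate 2. When control male brain replicate 1 was dropped it was 30, while the median difference stayed between 0.82 and 1.16 in all 12 such fits. Over the fits named here, the share of all genes called rose in the same order as the count, from the fit with 2 to that with 30. It was 24.9% with all libraries and 13% in the fit with 10. The swing in the count was thus shared by the whole table and was not particular to the 37 genes. Mitf and Kif3C kept their call in each of the 21 alternatives run for brain. The sum of 6 neuronal markers was also higher in mutants, going from 218 to 443 FPKM in control female brains to 492 to 934 FPKM in mutant ones, with 3 of the 6 called higher over both sexes. In males the sums were 199 to 508 FPKM in controls and 640 to 741 FPKM in mutants. Photoreceptor markers summed to 2965 to 3348 FPKM in control and 2759 to 9237 FPKM in mutant female brains, and to 2098 to 3213 and 4677 to 7028 FPKM in males, with 6 of 9 called higher. All 4 germline markers tested (aub, BicD, grk and piwi) were also higher, with sums of 18.2 to 33.9 FPKM in controls and 32.5 to 52.6 FPKM in mutants over both sexes, against 268 FPKM or more in ovary. Of other markers, 1 of 7 for glia was higher and 2 lower, 1 of 7 for muscle and 1 of 5 for fat body were higher and 1 of 5 for haemocytes was lower, and none of those for gut, follicle cells or testis was called. All these marker counts compare with 14.2% of all genes tested called higher and 10.8% lower. The part of these markers in the differences of the chromosome 4 genes was not tested.

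Genes that are neighbours on chromosome 4 but not on the list moved in the same way. Of all 77 protein-coding genes of the chromosome that were tested, 49 were higher in mutant brains, with a median of 1.07, and of the 40 outside the list 24 were higher, with a median of 1.14. The medians of the other arms lay between -0.06 on X and 0.10 on 3L, and 11.9% to 15.8% of their genes were called higher. The 37 genes had a median span of 11568 bases (1159 to 52075), against 2139 for other protein-coding genes. Among genes under 5 kb the median difference of the list was 1.03 (4 of 6 called higher) against -0.06 for other protein-coding genes (8.32% called higher). Between 5 and 20 kb it was 1.01 (15 of 22) against 0.22 (23.1%), and at 20 kb or more 0.91 (6 of 9) against 0.39 (34%). The part of gene length in these differences was not tested.

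**Figure D5:**
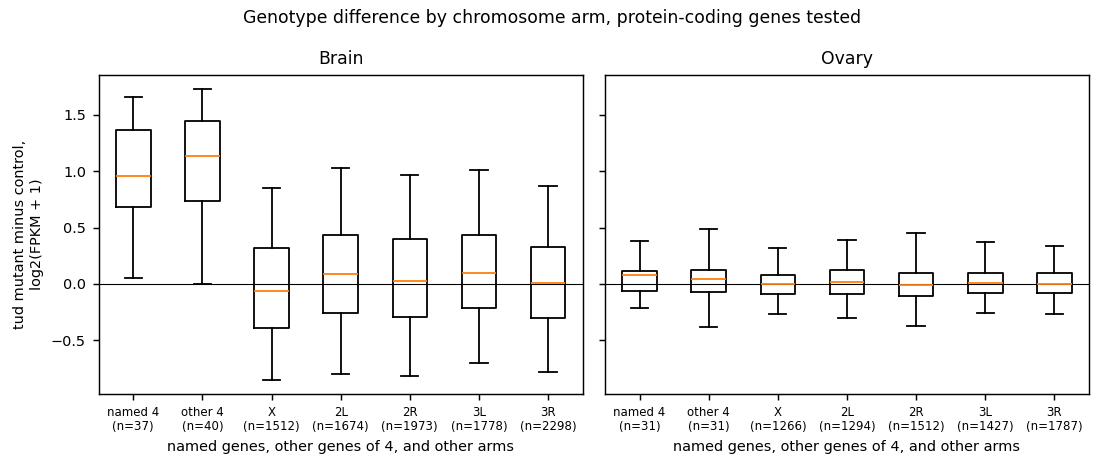
Log2 difference between tud mutant and control brain (left) and ovary (right) for the named genes of chromosome 4, its other protein-coding genes and those of each other arm, as boxes of the median and quartiles with whiskers from the lowest to the highest 5% and the number of genes below. In brain the medians of the named genes (0.96) and of the other chromosome 4 genes (1.14) lie above those of the other arms (-0.06 to 0.10), and in ovary all medians are near 0.

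Partners of these genes, nearly all on other chromosomes, were counted in the same way, and their counts are read against the share of all genes called. In the brain fit, 2 of 14 chromatin regulators of chromosome 4 and of H3K9 methylation, a list that includes Pof and egg, were higher and 1 was lower, with a median of 0.18, where 14.2% of all genes tested were higher and 10.8% lower. Of 18 Hedgehog and Wnt pathway genes tested 5 were higher and 3 lower (median 0.32), and of 11 semaphorin and guidance genes 5 were higher and none lower (median 0.37). For the activin pathway 5 of 9 were higher and none lower (median 0.57), a list in which mav lies on chromosome 4 too, and of 6 eye determination genes 2 were higher and 1 lower (median 0.27). In ovary none was called of the 14 chromatin, 17 Hedgehog and Wnt, 7 guidance, 8 activin and 1 eye determination genes that reached the level for testing, and the others were not tested there.

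The third comparison took the sexes apart. In female brain alone none of the 37 passed (0.337% of all genes did), although 21 had an unadjusted p under 0.05, as had 1802 of the 10689 genes by the same limma fit. In male brain alone Kif3C passed (1.66, standard error 0.33, adjusted p = 0.0426), against 1.23% of all genes, and 27 had an unadjusted p under 0.05, as had 3549 of all genes. Mutants lay above controls without overlap in 26 of the 37 in females (16.3% of all genes) and in 22 in males (19.4%). The count in males was 29 without control male brain replicate 1. It was 4 when the library labelled tud mutant female brain replicate 2 was dropped, still 1 when control female brain replicate 3 was, and 0 without any other single library. That in females was 4 when control male brain replicate 2 was dropped and 2 when replicate 1 of that group was, in a fit where both sexes share one estimate of the spread. Over the single omissions, the share of all genes that passed was highest in the fit with 29 for males and with 4 for females. It was next highest in the fit with 4 for males and with 2 for females. The Kif3C call in males was lost in 13 of the 21 alternatives.

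The change itself was not shown to differ between the sexes for any of the 37, by adjusted p (0.0187% of all genes passed) or by unadjusted p under 0.05 (0 of 37, and 137 of all genes). Nor did any gene of the list differ between female and male brain averaged over genotypes (0.720% of all genes passed, 1115 with an unadjusted p under 0.05, 0 of them on the list), although 33 of the 37 had a higher mean in females, with a median log2 difference of 0.29. Without control male brain replicate 2 that median was 0.02. These tests do not show that the sexes are alike.

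The last comparison set tud mutant against control ovary. Of the 37, 31 had a mean of at least 1 FPKM in the ovary libraries and were tested, while ey, toy, zfh2, onecut, Actbeta and Kif3C were below that level and were not tested in this fit. Among these 31 a single gene passed, Sox102F, where 4.09% of all genes did (2.54% higher). The median difference of the 31 was 0.08, against 0.00 over all genes, and the residual spread was less than that of brain, so that smaller differences could be seen.

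Sox102F, the SoxD factor, was at 3.50, 3.17 and 3.05 FPKM in control ovaries and at 19.8, 13.2 and 19.5 FPKM in mutant ovaries. The groups were far apart, with every mutant library several times above every control. The means were 3.24 ± 0.238 and 17.5 ± 3.71 FPKM (SD, n = 3), a ratio of 5.41 and a log2 difference of 2.11 (standard error 0.15, adjusted p = 0.000721), and the call held in all 14 alternatives with values between 2.01 and 2.38. Mutant ovaries thus reached the level of control female brains, which was 17.5 ± 2.42 FPKM. Of its neighbours, MED26, which lies next to it at 778516 to 788978, differed by 0.09 (adjusted p = 0.786) and bt, the protein-coding gene beyond it, by -0.17 (adjusted p = 0.647). On the other side the nearest gene, fd102C at 836986 to 844529, was below the level for testing in ovary. The second tested gene without overlap was yellow-h, at 1.17, 0.809 and 0.901 FPKM in control and 2.34, 1.71 and 1.79 FPKM in mutant ovaries, but its difference of 0.59 (standard error 0.16, adjusted p = 0.11) did not pass, and 2 of 31 genes without overlap compares with 13.3% of all genes. None lay below all controls (11.4% of all genes).

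Apart from Sox102F, none of the genes called in brain and tested in ovary passed there. Mitf, at 216, 202 and 208 FPKM in control ovary, was at 267, 188 and 221 FPKM in mutant ovary (log2 difference 0.09, standard error 0.12, adjusted p = 0.747). Dyrk3 was at 61.5, 58.4 and 59.8 FPKM in controls and 69.9, 52.7 and 60.2 FPKM in mutants (0.02, standard error 0.10, adjusted p = 0.951), and Eph and Ephrin differed by 0.09 and 0.12. Across the tested genes apart from Sox102F and yellow-h the ovary values ran from -0.35 for Syt7, which averaged 1.42 FPKM in control ovary, to 0.18 for mGluR. In 23 of the 37 genes tud mutant ovary replicate 1 was the highest of the 6 ovary libraries.

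The other genes of the transcription factor group overlapped between the genotypes in ovary wherever a value was tested. The ovary levels of pho were 145, 131 and 160.3 FPKM in controls and 202, 127 and 144 FPKM in mutants. Those of lgs were 50.4, 48.3 and 46.05 and 56.7, 44.1 and 51.4 FPKM in the same order. Mutant ovaries held ci at 9.30, 9.795 and 9.35 FPKM, overlapping its controls, and dati went from 2.37, 2.17 and 1.90 to 2.22, 2.42 and 2.65 FPKM. The factors below the level for testing were at 0.360, 0.445 and 0.332 FPKM for toy, 0.211, 0.101 and 0.278 FPKM for zfh2 and 0.101, 0.0719 and 0.109 FPKM for onecut in mutant ovaries, all under 1 FPKM as in controls.

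Among ligands, receptors and kinases the ovary groups overlapped as well. Eph was at 87.7, 84.5 and 79.4 FPKM in control and 107, 73.97 and 89.6 FPKM in mutant ovaries. Ephrin had 79.2, 77.8 and 74.7 and 102, 70.8 and 82.4 FPKM. For both, the first mutant ovary was the highest library and the second the lowest. PlexA was at 160.0, 127 and 143 FPKM and PlexB at 20.8, 15.5 and 18.7 FPKM in mutant ovaries, each spanning part of its control range. The ligand gene myo was at 61.7, 63.6 and 66.6 FPKM in controls and 75.4, 47.9 and 56.9 FPKM in mutants, and Actbeta at 0.0570, 0.0605 and 0.0325 FPKM in mutants, as low as in controls. In the kinase and adaptor group, mutant ovaries had Crk at 224, 156 and 164 FPKM. CaMKI was at 135, 97.95 and 105 FPKM and Asator at 19.1, 16.2 and 16.2 FPKM there. These ranges also overlapped with the controls, and Slip1 went from 54.98, 51.9 and 51.2 to 67.4, 47.03 and 54.2 FPKM with overlap.

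The cytoskeletal, trafficking and transport genes also overlapped in ovary, apart from Kif3C. Ank was at 159, 151 and 149 FPKM in controls and 198, 153 and 169 FPKM in mutants. Arl4 was at 168, 166 and 177 and 225, 147 and 163 FPKM. PMCA was at 164, 159 and 165 and 177, 142 and 145 FPKM. In each of these the groups overlapped. Zip102B was at 46.3, 42.6 and 48.3 FPKM in controls and 56.02, 45.9 and 47.1 FPKM in mutants. Syt7 had 1.34, 1.17 and 1.76 FPKM in controls and 1.24, 0.570 and 0.919 FPKM in mutants, low in all 6 libraries. Arf102F was at 553, 407 and 425 FPKM and bt at 1.08, 1.85 and 1.71 FPKM in mutant ovaries, overlapping their controls. Kif3C, which was not tested in ovary, was at 0.749, 0.925 and 0.865 FPKM in mutants, above its 3 controls and under 1 FPKM throughout. Of the maintenance genes, gw was at 207, 198 and 188 FPKM in controls and 219, 189 and 196 FPKM in mutants, with overlap. Pur-alpha was at 59.9, 56.9 and 67.1 and 67.4, 49.1 and 53.96 FPKM. Rad23 was at 369.6, 289.7 and 304 FPKM and Thd1 at 18.1, 16.9 and 18.4 FPKM in mutant ovaries, and these groups overlapped with their controls too.

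A direct test of the difference between the tissues, ovary change minus female brain change, was below 0, the change in female brain being the higher one, for 29 of the 31 genes also tested in ovary, where 44.8% of all genes tested in both fits were below 0. It passed for 2 of the 37, where 1.05% of all genes passed. Mitf had -1.43 (standard error 0.24, adjusted p = 0.0207), its change in female brain being 1.52 and that in ovary 0.09, and dati had 0.75 (standard error 0.14, adjusted p = 0.0369), its value in female brain being -0.62 and that in ovary 0.13. The Sox102F change, larger in ovary, had 1.28 (standard error 0.33, adjusted p = 0.0934) and did not pass. Dropping control female brain replicate 1 gave a count of 13, where 4.53% of all genes passed. Dropping the library labelled tud mutant female brain replicate 2 gave 4 (3.38% of all genes), with Mitf at -1.32 (adjusted p = 0.021) and dati at 0.69 (adjusted p = 0.0219). The count changed with other libraries too. It was 1 without tud mutant female brain replicate 3 or tud mutant ovary replicate 1, and 0 without control female brain replicate 2, tud mutant ovary replicate 2 or 3, or any control ovary. Among these fits the share of all genes that passed was highest in that with 13 and next highest in that with 4. In each fit with 1 or 0 the share was below the 1.05% of the full fit. The swing in the count was thus shared by the whole table. Of the 25 genes that rose in brain, 14 were higher in control ovary than in control female brain, 8 were lower and 3 differed by no call, so that genes of each baseline pattern were among them.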

How the data were processed

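RNA was sequenced from 12 brain and 6 ovary libraries of control and tud mutant flies, as strand-specific libraries without poly(A) selection. The deposited table holds FPKM values per gene and library, made by the authors. The submitters' processing notes name CASAVA, FastQC 0.10.1, TopHat2 2.0.13, Cufflinks and Cuffnorm 2.2.1. The step that wrote the table, its scaling between libraries and its use of strand are not given in the sources used here, and read counts are not in it, so depth was estimated from the lowest values and the count test of the study could not be repeated. Gene positions come from Ensembl annotation release 115 of the same assembly, and sequences were not used here.

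FPKM was tested as log2(FPKM + 1) with limma 3.58.1 (R 4.3.3, trended variance) over all genes with a mean of at least 1 FPKM in the libraries of a fit, with Benjamini-Hochberg adjustment over all genes tested and a threshold of 0.05. The 12 brain libraries formed one fit of 4 groups, the 6 ovary libraries another, and control ovary against control female brain and ovary with female brain a further one each. The pseudocount makes a log2 difference understate the change of low genes. All 37 genes are named, and each got its value in every library if it passed a genotype or interaction test or was the highest or lowest of its functional group in a control tissue. Genes and lists were chosen with earlier results of these data known. The fits were also run on simulated data in which each gene varied independently. Shifts shared by many genes of a library were absent there, so that run does not measure the rate of false calls in these data. Alternatives were a pseudocount of 0.1, other filters (none, or a mean of 5 FPKM), median-of-ratios and quantile scaling, no variance trend, a replicate block, array weights and leaving out each library. Leaving out both outlying brain libraries and testing protein-coding genes only were chosen after seeing the data.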

Additional observations from a re-analysis of the deposited data

Results flagged for a closer look

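The genotype difference of Mitf differed between ovary and female brain, since the ovary value minus the female brain value was -1.43 (limma, adjusted p = 0.0207), with all 3 mutant female brains above all 3 controls and overlapping groups in ovary. The difference between the tissues for dati was 0.75 (limma, adjusted p = 0.0369), with all 3 mutant female brains below all 3 controls and overlapping groups in ovary. One of these 3 mutant libraries, the one labelled tud mutant female brain replicate 2, had a tud level above every female control, and without it the values were -1.32 for Mitf (adjusted p = 0.021) and 0.69 for dati (adjusted p = 0.0219) by the same limma fit. Over the 20 alternatives run, the call was lost in 7 for Mitf (adjusted p up to 0.0792) and in 13 for dati (up to 0.122).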

How the results depend on the processing

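The brain count of 25 genes stayed within 1.5 times of that number under every alternative of scaling, filter, pseudocount, trend and block, and ran from 2 to 30 when single libraries were left out. For female brain the count of 0 became 1 with quantile normalization, 1 with the replicate block and 2 without both outlying libraries. It ran from 0 to 4 (1.57% of all genes) with single libraries left out. For male brain the count of 1 became 0 with a pseudocount of 0.1, with no filter, with males fitted alone and without both outlying libraries, became 2 with quantile normalization, and ran from 0 to 29 with single libraries left out. The ovary count was 2 without a variance trend and 1 in every fit with a library left out. The counts for a change that differs between the sexes and for female against male brain were 0 in every such fit. The tissue count of 31 was 29 with a filter at a mean of 5 FPKM and ran from 30 to 34 with single libraries left out. The count of 2 for a change that differs between ovary and female brain became 1 with a pseudocount of 0.1, with the replicate block and with array weights. It ran from 0 to 13 (4.53% of all genes) with single libraries left out. For this result and for brain, female brain and male brain, the single omission with the highest count also had the highest share of all genes called. The tissue difference of yellow-h turned to 0.49 with quantile normalization, the only reversal among the single genes called. The medians over the list also changed sign for 2 results, that of the change differing between the sexes, from -0.27 to 0.22 without control male brain replicate 2, and that of the ovary change, from 0.08 to -0.04 without tud mutant ovary replicate 1. The cause of these shifts was not tested.

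Quantile normalization moved the median brain difference of all genes from 0.07 to -0.04 and the share of brain calls that were higher from 56.9% to 44.1% (50.9% with median-of-ratios scaling). In male brain that share went from 55.3% to 37.9%. In the tissue comparison it moved the median of all genes from -0.19 to 0.14.

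Same-numbered control and mutant libraries deviated together with correlations of 0.037 to 0.287 in brain and -0.107 to 0.031 in ovary, so the numbers were not taken to pair the samples. With the replicate block the brain count was 26, the male count 1, the ovary count 1 and the tissue count 31.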

Other observations

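Outside the list, 5 other genes of chromosome 4 passed the limma test in ovary, named here after their values were seen. CG1909 (0.89, adjusted p = 0.0429), asRNA:CR45126 (0.95, adjusted p = 0.00366), CG31999 (0.60, adjusted p = 0.0209) and lncRNA:sphinx (0.55, adjusted p = 0.0121) were higher in mutant ovaries on the log2 scale. Cadps, a gene of dense-core vesicle release, fell by 0.93 (adjusted p = 0.0315).

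Several of the named genes share their span with a gene on the opposite strand. CG33941, which overlaps Asator, rose in mutant brains by 1.72 on the log2 scale (adjusted p = 0.0231), and Rnf11, which overlaps PMCA, had a difference of 0.61 (adjusted p = 0.137). The levels of such pairs are uncertain where the counting did not use strand.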
